A study of Homo sapiens with 12 samples.

Results

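The genes described here are 10 keratins out of 60675 genes in the deposited count tables, a named set of basal and luminal keratins. The set was chosen with earlier results of these data known, so its share of calls is a description. KRT5, KRT6B, KRT14, KRT16, KRT17 and KRT79 are the 6 keratins of basal and stratified epithelium, and KRT7, KRT8, KRT18 and KRT19 are the 4 keratins of luminal and simple epithelium. Each name matched 1 gene in both tables, so all 10 were found. The study measured polyadenylated RNA by stranded paired-end sequencing in MDA-MB-468 and HCC1187, both established human lines of triple-negative breast cancer, a tumour class without oestrogen receptor, progesterone receptor or HER2 amplification. The 4 groups of 3 libraries were MDA-MB-468 with sh-SOX9-AS1, MDA-MB-468 with sh-LacZ, HCC1187 with sh-SOX9-AS1 and HCC1187 with sh-LacZ. SOX9-AS1 is a non-coding transcript gene, an shRNA is a short hairpin that directs cleavage of its target RNA, and the hairpin against the bacterial gene LacZ served as control. All cells were transfected for 48 h and carry the cell type label basal-like. MDA-MB-468 was grown in DMEM and HCC1187 in RPMI-1640, so line and medium cannot be told apart. No source used here gives the number of hairpins against SOX9-AS1, or says that replicate libraries come from different cultures, so p-values measure the spread between these libraries, which may be technical.

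Keratins are the intermediate filament proteins of epithelial cells. A filament is built from pairs of an acidic type I keratin and a basic type II keratin, so the genes are usually made in partners. KRT5 (type II) pairs with KRT14 (type I) in the basal layer of stratified epithelium and in myoepithelial cells of the breast. KRT8 (type II) pairs with KRT18 (type I) in simple epithelium, where KRT7 (type II) and KRT19 (type I) are also found in ducts. KRT6B (type II), KRT16 and KRT17 (both type I) are the keratins of hair follicle, activated and wounded epidermis, and KRT79 (type II) is known in the mouse from the hair canal and sebaceous duct. In breast cancer KRT5, KRT14 and KRT17 stain basal-like tumours, while KRT8, KRT18 and KRT19 stain most carcinomas.

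The type II genes lie together on chromosome 12 and the type I genes on chromosome 17, except KRT18, a type I gene that lies beside its partner (GENCODE v29, GRCh38). On chromosome 12 KRT5 spans chr12:52514575-52520687, KRT6B chr12:52446651-52452126, KRT79 chr12:52821410-52834295 and KRT8 chr12:52897187-52949954, all on the minus strand. KRT7 at chr12:52232520-52252186 and KRT18 at chr12:52948871-52952901 are on the plus strand. On chromosome 17 KRT14 spans chr17:41582279-41586921, KRT16 chr17:41609778-41615899, KRT17 chr17:41619441-41624842 and KRT19 chr17:41523617-41528308, all on the minus strand. KRT8 and KRT18 overlap by 1084 bases on opposite strands, and KRT7 overlaps KRT86 by 2887 bases on its own strand and KRT7-AS by 2401 bases and KRT87P by 1721 bases on the other. Whether the authors counted reads by strand is stated in no source used here, and the values of KRT7, KRT8 and KRT18 may hold reads of these neighbours. KRT6B shares 34.4% of its 76-base transcript words with other keratin genes, mainly KRT6C and KRT6A, and KRT14 shares 9.77% of its words, KRT16 7.59% and KRT8 5.99%. KRT7, KRT19 and KRT79 share none.

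Promoter sequence from RefSeq (GRCh38.p14), covering 250 bases before to 50 bases after the gene start, was at hand for 3 of the 10 genes. The promoters of KRT5 (chr12:52520345-52520644, minus strand) and KRT79 (chr12:52834262-52834561, minus strand) are printed because both type II genes had lower counts in S5 and S6, the pair of MDA-MB-468 libraries on which the results below turn. Capitals mark GATAAAAAG, which both promoters hold at the same place.
KRT5: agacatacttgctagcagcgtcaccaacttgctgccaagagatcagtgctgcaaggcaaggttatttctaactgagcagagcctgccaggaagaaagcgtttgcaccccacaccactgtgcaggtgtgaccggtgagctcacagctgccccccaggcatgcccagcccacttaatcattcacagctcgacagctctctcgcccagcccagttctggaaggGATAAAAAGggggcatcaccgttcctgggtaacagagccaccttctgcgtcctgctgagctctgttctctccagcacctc
KRT79: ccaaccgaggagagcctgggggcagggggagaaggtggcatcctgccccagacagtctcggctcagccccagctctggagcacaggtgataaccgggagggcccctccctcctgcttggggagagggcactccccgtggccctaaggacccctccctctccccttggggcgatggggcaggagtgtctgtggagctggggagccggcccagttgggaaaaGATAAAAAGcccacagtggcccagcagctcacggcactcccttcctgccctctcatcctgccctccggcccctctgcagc
The word starts at position -30 from the gene start in both promoters. It occurs on either strand of 0.256% of the 35116 RefSeq promoters of this length, 90 in number. It was picked after both sequences had been read, so its share is a description. Another 5 words were searched on both strands and are in neither promoter. The TATA word TATAAA is in 11.5% of all promoters and CCAAT, a word bound by NF-Y, in 34.6%. The SP1 word GGGCGG is in 15786 of the 35116, the AP-1 word TGANTCA in 7.71% and the SOX word ACAAT in 27.4%. The promoter of KRT8, the third gene at hand (chr12:52926420-52926719, minus strand), holds ACAAT at -156 and none of the other 5 words. This window lies inside the KRT8 span given above, and the KRT5 window lies inside the KRT5 span. The RefSeq starts used for these genes are therefore not the starts of those spans.

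Levels are in CPM, a count divided by its library's size, with library totals adjusted by the TMM method, and fold changes are log2 values from edgeR's quasi-likelihood test with their standard error. A gene was called at a Benjamini-Hochberg adjusted p under 0.05 over all genes tested in a comparison. Libraries are named S1 to S12 by the number in their column names. Totals ran from 6026376 to 10160040 counts and 20265 to 23915 genes had a count. In MDA-MB-468, SOX9-AS1 stood at 5.54, 5.03 and 5.57 CPM with sh-SOX9-AS1 and at 6.04, 7.28 and 6.54 CPM with sh-LacZ, a log2 fold change of −0.30 ± 0.20 that was not called (adjusted p = 0.417; −0.32 ± 0.23, adjusted p = 0.274 without S4). In HCC1187 it stood at 1.16, 0.697 and 0.796 CPM with sh-SOX9-AS1, against 1.40 to 2.32 CPM with sh-LacZ, and was called lower (−1.08 ± 0.36, adjusted p = 0.0349). SOX9, the transcription factor gene inside its span on the opposite strand, stood at 112 to 150 CPM with sh-SOX9-AS1 and 180 to 230 CPM with sh-LacZ in MDA-MB-468 (−0.68 ± 0.14, adjusted p = 0.205; −0.82 ± 0.10, adjusted p = 2.03e-05 without S4), and was lower in HCC1187 (−0.49 ± 0.16, adjusted p = 0.0256).

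Library S4, labelled as an MDA-MB-468 sh-SOX9-AS1 library, stood apart from S5 and S6, the others of its group. Across 15468 genes it correlated with the MDA-MB-468 sh-LacZ libraries at r = 0.989 to 0.994 and with S5 and S6 at 0.971 to 0.974, while S5 and S6 correlated at 0.993. The deposited sample table lists 11 of the 12 libraries, and S4 is the missing one. MDA-MB-468 results are therefore given with and without it. The choice to set S4 apart came from these same data. Leaving out a control-like library tends to widen the gap between groups and narrow the spread. The p-values and counts of calls without S4 hold only under that choice. The libraries labelled HCC1187 held few counts for most, though not all, markers of the labelled cell type. Summed over EPCAM, CDH1, CLDN4, CLDN7, ESRP1 and GRHL2, a list of 6 genes of epithelial adhesion, junctions and identity, they held 21.1 to 24.9 CPM with sh-SOX9-AS1 and 21.4 to 23.0 CPM with sh-LacZ. MDA-MB-468 held 1119 to 1197 CPM with sh-SOX9-AS1 and 1174 to 1200 CPM with sh-LacZ. GRHL2, a transcription factor of epithelial identity, had no count in any of the 6 HCC1187 libraries. Of 13 basal epithelial markers, summing to 214 to 231 CPM with sh-SOX9-AS1 and 258 to 285 CPM with sh-LacZ, 6 and 5 had at most 3 counts over their HCC1187 group, among them KRT5, KRT14, KRT6B and TP63, the gene of the basal transcription factor p63. FOXC1, a transcription factor gene of basal-like tumours, went the other way and made up most of the HCC1187 sum, at 173 to 191 CPM in the HCC1187 sh-LacZ libraries and 72.8 to 95.2 CPM in those of MDA-MB-468. The list of 10 fibroblast and mesenchymal genes summed to 1468 to 1609 CPM with sh-SOX9-AS1 and 1783 to 2070 CPM with sh-LacZ in HCC1187, and to 450 to 545 CPM with sh-SOX9-AS1 and 480 to 544 CPM with sh-LacZ in MDA-MB-468. VIM made up most of the HCC1187 sum, at 1343 to 1540 CPM in the sh-LacZ libraries, against 91.7 to 113 CPM in those of MDA-MB-468. The 14 luminal markers summed to 337 to 360 CPM with sh-SOX9-AS1 and 418 to 455 CPM with sh-LacZ in HCC1187, and to 6392 to 7350 CPM with sh-SOX9-AS1 and 6407 to 6990 CPM with sh-LacZ in MDA-MB-468. This list holds KRT7, KRT8, KRT18 and KRT19, which made up most of its sums, so it is no separate view of the keratins. In the HCC1187 sh-LacZ libraries KRT8 stood at 181 to 190 CPM and KRT18 at 91.1 to 95.1 CPM. The basal list likewise holds KRT5, KRT6B, KRT14 and KRT17. The 6 leukocyte markers summed to at most 3.97 CPM in HCC1187 and at most 156 CPM in MDA-MB-468, where 4 of the 6 had no count in each group. The part of these differences in the keratin results was not tested.

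The first comparison asked which keratins MDA-MB-468 carries and how the sh-SOX9-AS1 libraries differ from the sh-LacZ libraries. In S5 and S6 all 6 basal and stratified keratins stood below every sh-LacZ library, with KRT5 2.03-fold and KRT17 5.49-fold below the controls in summed counts over library size. In S4 they stood in the control range, except KRT79, which lay just below it. In S5 and S6 the 4 simple keratins differed less from the controls than any of the 6. With all 6 libraries none of the 10 keratins was called. Without S4, left out because of these same data, 8 were called lower. In bulk RNA, fewer cells of a type and less RNA per cell cannot be told apart.

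KRT17, which is induced in wounded and transformed epithelium, had the widest gap among the well-expressed members. The 3 sh-SOX9-AS1 libraries S4, S5 and S6 held 633, 124 and 101 CPM, against 663, 624 and 572 CPM in the sh-LacZ libraries S1, S2 and S3. S4 lay inside the control range and the other two far below it. The log2 fold change was −1.11 ± 0.61 with all 6 libraries (adjusted p = 0.335) and −2.46 ± 0.10 without S4 (adjusted p = 2.65e-10). KRT5, the type II keratin of basal cells, stood at 1450.0, 757 and 741 CPM in S4 to S6 and at 1599, 1531 and 1417 CPM in S1 to S3. Its S4 value again fell among the controls. KRT5 gave −0.62 ± 0.24 with all libraries (adjusted p = 0.234) and −1.02 ± 0.08 without S4 (adjusted p = 1.79e-07). KRT14, the partner of KRT5, was far less abundant, at 12.03, 1.68 and 3.87 CPM with sh-SOX9-AS1 and at 21.6, 15.5 and 10.0 CPM with sh-LacZ. The sh-LacZ libraries of KRT14 themselves spread widely. Its log2 fold change was −1.44 ± 0.57 with all libraries (adjusted p = 0.238) and −2.54 ± 0.36 without S4 (adjusted p = 6.36e-05).

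KRT16, the keratin of activated epidermis that pairs with KRT6, stood at 69.2, 33.8 and 31.7 CPM in S4 to S6 and at 113, 88.0 and 64.0 CPM in S1 to S3. KRT6B, one of its type II partners, stood at 173, 78.3 and 68.4 CPM with sh-SOX9-AS1 and at 203, 195 and 167 CPM with sh-LacZ. Both partners were thus lower in S5 and S6 than in every control, while S4 lay within the control range. KRT16 gave −0.98 ± 0.32 with all libraries (adjusted p = 0.208) and −1.44 ± 0.18 without S4 (adjusted p = 2.18e-05). KRT6B gave −0.82 ± 0.32 with them all (adjusted p = 0.229) and −1.37 ± 0.11 without S4 (adjusted p = 1.49e-07). KRT79 rests on few reads, with 11, 1 and 1 counts in S4 to S6 and 33, 18 and 25 counts in S1 to S3. Against the 76 control counts, the 2 counts of S5 and S6 together gave a level 21.5-fold lower, with a 95% exact interval of 5.76 to 181 that covers counting error only. The fitted log2 fold change of KRT79 was −2.22 ± 0.67 with all libraries (adjusted p = 0.206) and −4.28 ± 0.60 without S4 (adjusted p = 5.83e-05).

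The 4 simple keratins behaved differently from one another. KRT19, the smallest keratin, stood at 2390, 2673 and 2293 CPM in S4 to S6 and at 1958, 2022 and 2325 CPM in S1 to S3. The groups overlapped, and the log2 fold change of 0.22 ± 0.11 was not called (adjusted p = 0.284; 0.23 ± 0.09, adjusted p = 0.0502 without S4). KRT8 stood at 1980.0, 1889 and 1679 CPM with sh-SOX9-AS1 and at 1700, 1749 and 1878 CPM with sh-LacZ. Its groups overlapped as well, with log2 fold changes of 0.06 ± 0.10 (adjusted p = 0.748) and 0.00 ± 0.08 without S4 (adjusted p = 0.993). KRT18, the partner of KRT8, stood at 1101, 854 and 774 CPM in S4 to S6 and at 928, 966 and 1032 CPM in S1 to S3. S4 was above every control and S5 and S6 below, so that KRT18 gave −0.10 ± 0.14 with all libraries (adjusted p = 0.699) and was called lower without S4 (−0.27 ± 0.08, adjusted p = 0.0156). KRT7 had the same order, at 1239, 1033 and 907 CPM with sh-SOX9-AS1 and at 1160.0, 1125 and 1135 CPM with sh-LacZ (−0.10 ± 0.12, adjusted p = 0.645; −0.24 ± 0.08, adjusted p = 0.0256 without S4).

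**Figure D1:**
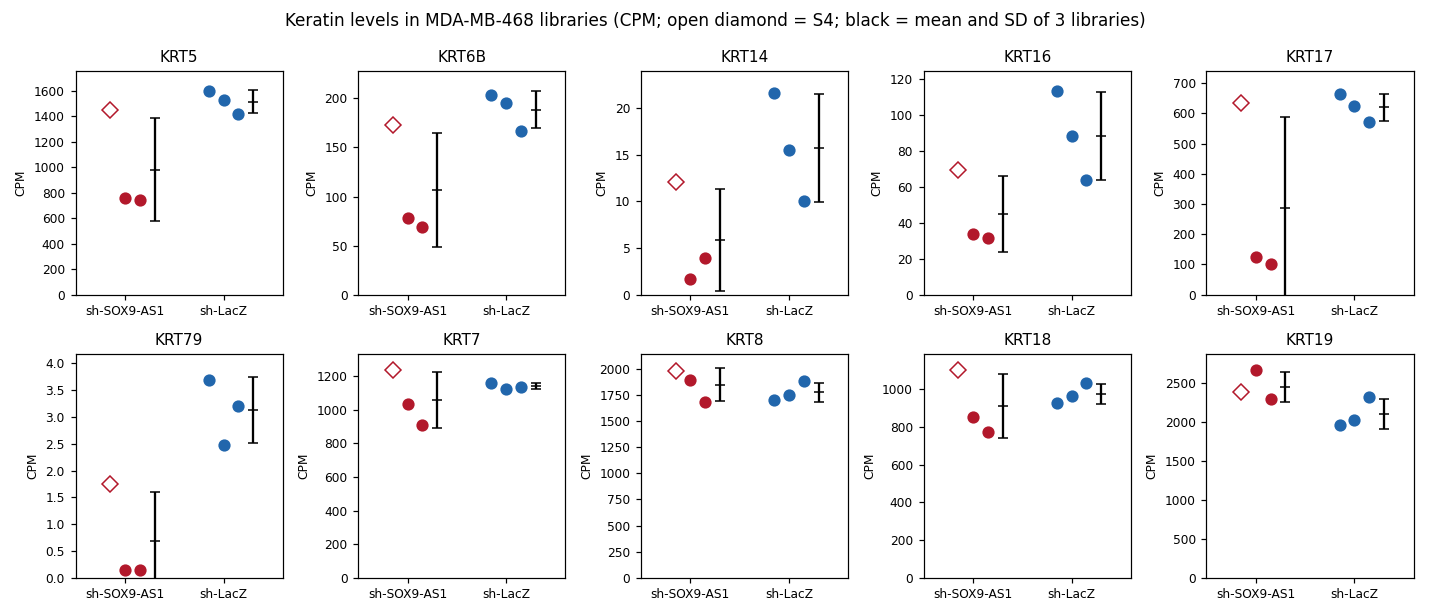
Levels of the 10 keratins in the MDA-MB-468 libraries in CPM on a linear axis from 0, with sh-SOX9-AS1 libraries at the left and sh-LacZ libraries at the right of each panel, the open diamond marking S4 and black bars the mean and SD of 3 libraries. For KRT5, KRT6B, KRT14, KRT16 and KRT17 the diamond lies in the control range while the other 2 sh-SOX9-AS1 libraries lie below it, and the 4 simple keratins in the second row differ little.

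Read against the background, the count of lower keratins depends on S4. With all 6 libraries 0.00733% of 13638 genes were called, 1 gene in all, so that a count of 0 among 10 keratins is no result about them (2554 genes had an unadjusted p under 0.05, KRT5, KRT6B, KRT14, KRT16 and KRT79 among them, and DESeq2 called 304). Without S4 20.7% of 13947 genes were called lower and 20.0% higher, against 8 of 10 keratins lower and 0 higher. The keratins and the leaving out of S4 were both chosen with results of these data known, so these shares are a description. The median log2 fold change of the 10 was −0.72 with all libraries and −1.19 without S4, beside −0.00 over all genes tested in both fits. With no filter on low counts, where 1441 genes were called, the 6 basal keratins were called lower with all libraries too (adjusted p = 4.57e-08 to 0.000431). With all 12 libraries fitted together, where 887 genes were called, KRT16 was (adjusted p = 0.0401). The fold changes hardly moved with the filter (KRT17 −1.12 without it and −1.11 with it). The adjusted p of KRT17 in edgeR's test was 0.335 with the filter and 4.57e-08 without it. In both fits S4 lay in the control range of KRT17 and S5 and S6 far below it. The p-values without the filter therefore do not show that the sh-SOX9-AS1 libraries were alike, and why they moved was not tested. The fit without S4 has 2 sh-SOX9-AS1 libraries, whose spread is pooled with that of the controls.

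Library by library, all 6 basal keratins lay lower in S5 and S6 than in S4, while the simple ones did not share 1 order. The 6 basal and stratified members had a median log2 difference from the control mean of −0.24 in S4, −1.85 in S5 and −1.73 in S6. The 4 simple members had 0.17, −0.03 and −0.20. Per kilobase of gene length, the basal sum was 33.9%, 14.0% and 15.1% of the simple sum in S4 to S6 and 44.9%, 41.2% and 33.8% in S1 to S3. Within the KRT8 and KRT18 pair the ratio of CPM values was 1.80, 2.21 and 2.17 in S4 to S6 and 1.83, 1.81 and 1.82 in S1 to S3, so S5 and S6 lay above the 3 controls and S4 just below them. No test was run on these sums and ratios.

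**Figure D2:**
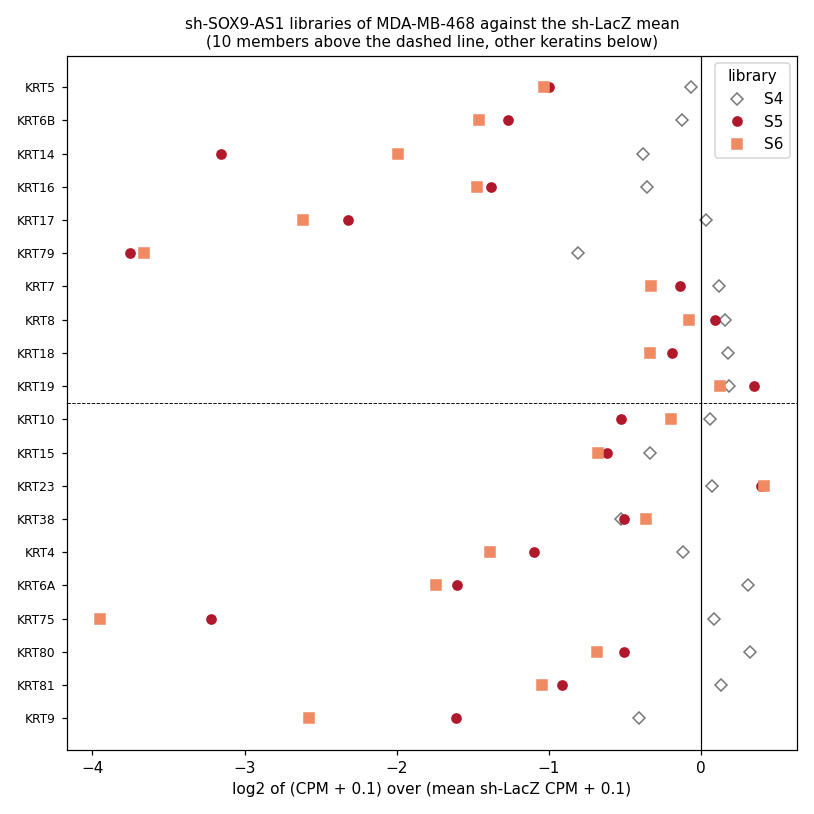
Log2 of CPM (plus 0.1) in each MDA-MB-468 sh-SOX9-AS1 library over the mean of the 3 sh-LacZ libraries (plus 0.1), for the 10 members above the dashed line and the 10 other keratins that were tested below it. Open diamonds are S4, filled circles S5 and squares S6, and the basal members have medians of −0.24, −1.85 and −1.73 in these libraries.

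Most of the other keratins with enough counts were called lower without S4 as well, where 20.7% of all genes were. Of 44 other keratin genes 10 had enough counts to test in MDA-MB-468; 0 were called with all libraries (median −0.52), while without S4 7 were lower and 1 higher (median −0.82). KRT81, a hair keratin, stood at 268, 130 and 119 CPM in S4 to S6 and at 244, 240 and 251 CPM in S1 to S3 (−0.50 ± 0.28 with all libraries; −0.98 ± 0.08, adjusted p = 4.96e-07 without S4). KRT6A, the near-identical relative of KRT6B, stood at 38.1, 10.1 and 9.13 CPM with sh-SOX9-AS1 and at 34.0, 26.9 and 31.3 CPM with sh-LacZ (−0.69 ± 0.48 with all libraries; −1.68 ± 0.16, adjusted p = 1.37e-06 without S4). KRT75, a hair follicle keratin, had 9.18, 0.838 and 0.464 CPM against 7.496, 8.65 and 9.75 CPM, and KRT4, a keratin of mucosal epithelium, had 44.3, 22.5 and 18.4 CPM against 49.1, 49.0 and 46.5 CPM. The 1 keratin that was higher without S4 was KRT23, named after its values were seen, at 113, 141 and 143 CPM against 98.9, 103 and 120 CPM (0.30 ± 0.13 with all libraries; 0.40 ± 0.10, adjusted p = 0.00376 without S4). Of 147 keratin pseudogenes 3 could be tested, and without S4 KRT16P6 (−1.25 ± 0.25, adjusted p = 0.00103) and KRT8P12 (−0.48 ± 0.16, adjusted p = 0.0291) were lower. With all libraries the pseudogenes gave −0.56 ± 0.42 and −0.34 ± 0.17.

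Genes that anchor, bundle or regulate keratins went in both directions in MDA-MB-468. None on these lists was called with all 6 libraries, where 1 of 13638 genes was. Without S4 20.0% of all genes were called higher and 20.7% lower, so counts near these shares are no result about a list. Of 10 testable desmosome genes, which tie keratin filaments to cell junctions, 5 were lower and 0 higher without S4 (median −0.22; −0.15 with all libraries). With all libraries DSC3 gave −0.63 ± 0.20, PKP1 −1.39 ± 0.53 and DSP −0.19 ± 0.12. Without S4 DSC3, a desmosomal cadherin, was lower by −0.88 ± 0.12 (adjusted p = 5.59e-05), PKP1 by −2.44 ± 0.41 (adjusted p = 0.000285) at 3.16, 0.978 and 0.464 CPM against 3.57 to 4.59 CPM, and DSP, desmoplakin, by −0.31 ± 0.08 (adjusted p = 0.00429). Among 11 plakins and linkers 2 were higher and 2 lower (median 0.02; −0.02 with all libraries). DST, which links filaments to hemidesmosomes, was higher by 1.05 ± 0.09 (adjusted p = 2.31e-07) and stood at 147, 373 and 383 CPM with sh-SOX9-AS1 and at 164 to 192 CPM with sh-LacZ, while FAM83H, which acts on keratin filament organisation, was lower by −0.68 ± 0.09 (adjusted p = 5.55e-05), where all libraries gave 0.73 ± 0.31 for DST and −0.39 ± 0.20 for FAM83H. Of 9 cornified envelope and stratification genes 2 were higher and 4 lower (median −0.52; −0.29 over 8 with all libraries), led by the epidermal protease KLK5 at 568, 282 and 250 CPM against 518 to 559 CPM (−1.02 ± 0.08, adjusted p = 2.80e-07), and IVL, involucrin (−1.54 ± 0.18, adjusted p = 1.23e-05). With all libraries KLK5 gave −0.55 ± 0.28 and IVL −1.09 ± 0.28.

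Other filament genes and regulators in MDA-MB-468 went in both directions without S4, where 20.0% of all genes were called higher and 20.7% lower. Of 9 other intermediate filament genes 1 was higher and 6 lower (median −0.49; −0.37 with all libraries). The higher one was VIM, vimentin, the filament of mesenchymal cells, at 116, 203 and 209 CPM in S4 to S6 and 91.7, 92.9 and 113 CPM in S1 to S3 (1.05 ± 0.10, adjusted p = 9.63e-07; 0.83 ± 0.21, adjusted p = 0.205 with all libraries). Of 21 transcription factors known to act on epithelial keratin genes 4 were higher and 7 lower (median −0.04; 0.02 with all libraries). FOSL1, an AP-1 subunit, stood at 59.3, 9.64 and 8.05 CPM in S4 to S6 and at 37.6, 42.3 and 58.1 CPM in S1 to S3 (−0.84 ± 0.65 with all libraries; −2.37 ± 0.20, adjusted p = 3.64e-07 without S4), with S4 above every control. KLF5 (−0.96 ± 0.11, adjusted p = 1.08e-05) and GRHL2 (−0.50 ± 0.09, adjusted p = 0.000452) were lower and GRHL1 was higher (0.57 ± 0.10, adjusted p = 0.000441). With all libraries KLF5 gave −0.71 ± 0.19, GRHL2 −0.31 ± 0.15 and GRHL1 0.44 ± 0.15, none called. Among the marker lists, some of which hold these keratins, 9 of 13 basal markers were lower and 2 higher without S4, 3 of 11 testable luminal markers were lower and 3 higher, 2 of 6 epithelial markers were lower and 1 higher, 1 of 3 mesenchymal markers was lower and 2 were higher, and the 1 testable leukocyte marker was not called. With all libraries 0 markers of any of these lists were called, where 1 of 13638 genes was.

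The second comparison asked the same of HCC1187, where most of the keratin set was absent from the counts. KRT8 and KRT18 were the only members at more than a trace besides KRT17, and both were modestly lower with sh-SOX9-AS1. KRT18 stood at 75.9, 65.9 and 69.7 CPM in S10 to S12 and at 94.2, 91.1 and 95.1 CPM in S7 to S9, means of 70.5 ± 5.06 and 93.5 ± 2.11 CPM (SD, n = 3 each). KRT18 was lower by −0.42 ± 0.09 on the log2 scale (adjusted p = 0.00148, edgeR's quasi-likelihood test), and remained called in each alternative run. KRT8 stood at 162, 160.4 and 149 CPM with sh-SOX9-AS1 and at 181, 182 and 190 CPM with sh-LacZ, means of 157 ± 6.94 and 184 ± 4.78 CPM. The groups of both genes did not overlap. KRT8 changed by −0.24 ± 0.08 (adjusted p = 0.0391), a call that was lost with library totals as the only scaling, with all 12 libraries fitted together and without S7, S8, S9 or S12 (adjusted p = 0.0780 to 0.173). KRT17 stood at 3.93, 11.3 and 6.45 CPM with sh-SOX9-AS1 and at 4.84, 9.62 and 11.4 CPM with sh-LacZ, overlapping groups with a log2 fold change of −0.26 ± 0.28 (adjusted p = 0.530). That value rests on single libraries: it was −0.01 without S9, −0.02 without S10, −0.17 without S8 or S12, −0.57 without S7 and −0.69 without S11, none of them called (adjusted p = 0.0765 to 0.988).

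The other 7 keratins were not tested in HCC1187. KRT6B and KRT79 had no count in lane 1 of any of its 6 libraries, where 3 counts would be 0.265 to 0.436 CPM. KRT7 had at most 3 counts in a library, and KRT5, KRT14, KRT16 and KRT19 at most 2. Of all 14970 genes tested in HCC1187 13.1% were called lower and 9.78% higher, against 2 of 3 testable keratins lower and 0 higher. The split of calls depends on the scaling: 42.8% of all calls were higher with TMM and 57.7% with library totals alone, while the median over all genes was 0.01 and 0.07. The ratio of KRT8 to KRT18 CPM was 2.13, 2.43 and 2.14 with sh-SOX9-AS1 and 1.92, 1.998 and 1.99 with sh-LacZ, groups that did not overlap. No test was run on this ratio.

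**Figure D3:**
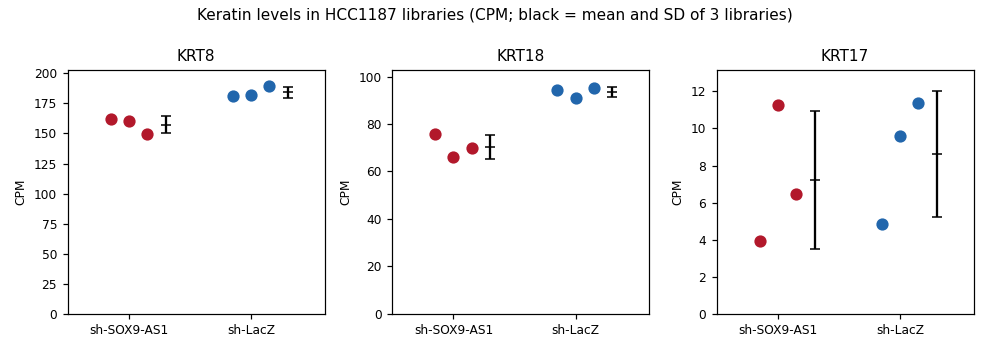
Levels in CPM of the 3 keratins tested in HCC1187, on linear axes from 0, with sh-SOX9-AS1 libraries at the left and sh-LacZ libraries at the right and black bars for the mean and SD of 3 libraries. KRT8 and KRT18 are lower in each of the 3 knockdown libraries than in each control, and the groups of KRT17 overlap.

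Among the partner lists in HCC1187, other intermediate filament genes gave the largest share of lower calls. Over all genes 13.1% were called lower and 9.78% higher. Of 14 tested, 8 were lower and 0 higher (median −0.31, beside 0.01 over all genes). NEFM, a neurofilament subunit, stood at 100.2, 125 and 102 CPM with sh-SOX9-AS1 and at 209.7, 212 and 234 CPM with sh-LacZ (−1.01 ± 0.10, adjusted p = 1.10e-07), and INA, another neuronal filament gene, changed by −0.60 ± 0.13 (adjusted p = 0.00163). Of 17 transcription factors acting on keratin genes 9 were lower and 0 higher (median −0.32), among them KLF4 (−1.01 ± 0.14, adjusted p = 1.55e-05), SP1 (−0.47 ± 0.10, adjusted p = 0.00125) and KLF5 (−0.49 ± 0.12, adjusted p = 0.00430). Of 8 desmosome genes 3 were lower and 2 higher (median −0.07). PERP, a desmosome component and p53 target, stood at 78.1, 109 and 104 CPM against 153, 160 and 154 CPM (−0.68 ± 0.10, adjusted p = 4.46e-05), DSC3 changed by −0.57 ± 0.09 (adjusted p = 9.73e-05), and JUP, plakoglobin, was higher by 0.31 ± 0.10 (adjusted p = 0.0242). Among 11 plakins and linkers FAM83H alone was called, higher by 0.57 ± 0.17 (adjusted p = 0.0163; median 0.06). None of 3 cornified envelope genes, of 1 other keratin (KRT10, −0.26 ± 0.15, adjusted p = 0.234) or of 1 pseudogene (KRT8P12, 0.62 ± 0.26, adjusted p = 0.0962) was called. Of the marker lists, 2 of 6 basal, 4 of 5 luminal, 0 of 5 epithelial, 2 of 8 mesenchymal and 0 of 1 leukocyte markers were lower and none higher. KRT8 and KRT18 are among the 4 lower luminal markers, so that count partly repeats the keratin calls.

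The third comparison set the difference of sh-SOX9-AS1 from sh-LacZ in HCC1187 against that in MDA-MB-468, as an interaction of line and hairpin. It covered the 3 keratins that could be tested in both lines. SOX9-AS1 itself was not called in MDA-MB-468, so differences there are not shown to follow a knockdown. With all 12 libraries none was called: the difference, HCC1187 minus MDA-MB-468, was −0.29 ± 0.12 for KRT8 (adjusted p = 0.195), −0.31 ± 0.16 for KRT18 (adjusted p = 0.308) and 0.86 ± 0.85 for KRT17 (adjusted p = 0.603). Of 16328 genes 3.75% were called. Without S4, 25.6% of 16807 genes were called, and among them KRT17, whose difference was 2.20 ± 0.31 (adjusted p = 6.04e-06). With no filter on low counts, where 1415 genes were called, KRT17 was called with all 12 libraries too (0.80, adjusted p = 0.00336). S4 still lay in the control range of KRT17 in that fit. In the other alternatives run KRT17 was not called. The value without S4 sets −0.26 ± 0.28 in HCC1187, at 3.93 to 11.4 CPM, beside −2.46 ± 0.10 in MDA-MB-468. KRT8 (−0.24 ± 0.11, adjusted p = 0.135) and KRT18 (−0.15 ± 0.12, adjusted p = 0.401) were not called without S4. The share of higher among all calls of this comparison was 32.95% with TMM and 46.9% with library totals alone.

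The fourth comparison was between the sh-LacZ controls of the lines. All 10 keratins were lower in HCC1187 than in MDA-MB-468, where 40.4% of 15592 genes were called lower and 43.6% higher. Of the 10, 7 passed the filter on low counts through MDA-MB-468 alone. Those 7 could only come out lower, so the count of 10 is a description. The lines share KRT8, KRT18 and KRT17 at different levels, and the other 7 keratins were seen at more than a trace in MDA-MB-468 only. KRT8 averaged 184 ± 4.78 CPM in HCC1187 and 1775 ± 92.4 CPM in MDA-MB-468, a 9.57-fold difference (−3.26 ± 0.08, adjusted p = 1.39e-19). KRT18 averaged 93.5 ± 2.11 CPM in HCC1187 and 975 ± 52.6 CPM in MDA-MB-468 a 10.4-fold difference (−3.37 ± 0.08, adjusted p = 8.08e-20). KRT17 averaged 8.61 ± 3.39 CPM in HCC1187 and 620 ± 45.5 CPM in MDA-MB-468, 71.8-fold lower (−6.17 ± 0.15, adjusted p = 2.78e-19).

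For the rest, the HCC1187 controls held 0 to 2 counts over 3 libraries. KRT19 had 2 counts in HCC1187 and 50357 in MDA-MB-468, 30750-fold lower with a 95% exact interval of 8512 to 253900. KRT5 had 2 against 36488 counts, 22280-fold lower (6168 to 184000), and KRT7 had 2 against 27405, 16730-fold lower (4632 to 138200). KRT16 had 1 against 2150, 2626-fold lower (471 to 103800), and KRT14 had 1 against 384, 469-fold lower (83.7 to 18570). KRT6B and KRT79 had no count in HCC1187, and a limit of 3 counts over the group puts KRT6B at least 1849-fold and KRT79 at least 30.9-fold lower. These intervals and limits cover counting error only. The median of all genes was 0.06 with TMM and 0.29 with library totals alone, small beside these differences.

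**Figure D4:**
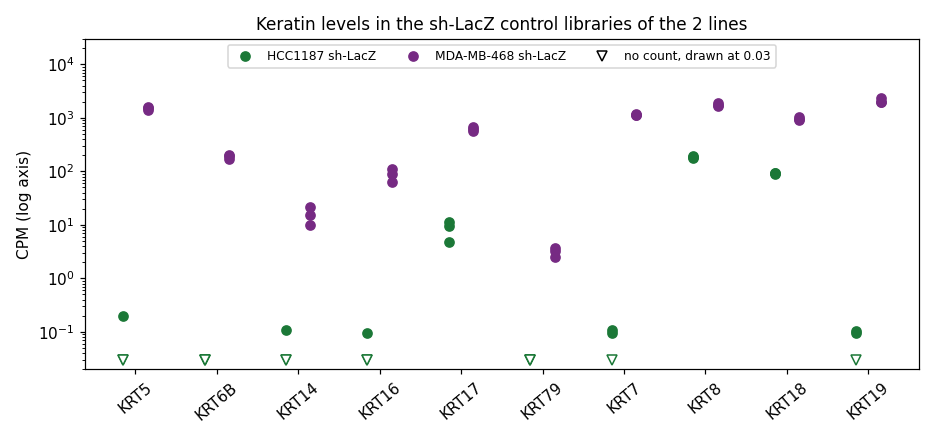
Keratin levels in CPM on a log axis in the sh-LacZ libraries, with HCC1187 left of MDA-MB-468 for each gene and one point per library. Open triangles, drawn at 0.03, are libraries without a count; KRT8 and KRT18 are the only keratins above 90 CPM in HCC1187, and in MDA-MB-468 5 of the 10 lie above 900 CPM.

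Compared between genes per kilobase of the deposited gene length, KRT19 was highest in the MDA-MB-468 controls at 899.8 ± 84.0 CPM per kb. KRT5 followed at 367 ± 22.2, KRT18 at 318 ± 17.2, KRT7 at 285 ± 4.57, KRT8 at 258 ± 13.4 and KRT17 at 207 ± 15.2 CPM per kb. KRT6B at 81.9 ± 8.19, KRT16 at 35.7 ± 9.89, KRT14 at 6.96 ± 2.57 and KRT79 at 1.22 ± 0.240 CPM per kb made the low end. With the longest transcript as length KRT19 was still first (1512 CPM per kb), but KRT8 was next (729), then KRT7 (650), KRT5 (599) and KRT18 (575), so the order among these 4 depends on the length used. Type I and type II partners were thus unequal in RNA: KRT14 stood far below KRT5 under either length, while KRT18 and KRT8 changed places. In HCC1187 KRT18 stood at 30.5 ± 0.687 and KRT8 at 26.8 ± 0.694 CPM per kb, again with the order turned by the longest transcript (55.1 and 75.5), and KRT17 at 2.88 ± 1.13.

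The keratins were lower in HCC1187 together with much of their partner genes. All 10 other keratins that could be tested were lower, and KRT81, KRT15, KRT4 and KRT6A had no count in the 3 HCC1187 controls. Genes near 0 counts in 1 line were tested through the other line alone, so their direction was fixed. The list counts here hold such genes and stand beside 40.4% lower and 43.6% higher over all genes tested. Of 10 desmosome genes 7 were lower and 2 higher (median −1.47, beside 0.06 over all genes): PKP3, a plakophilin, was lower by −7.83 ± 0.17 (adjusted p = 3.47e-20) and DSP by −2.19 ± 0.07 (adjusted p = 5.11e-17), whereas DSG2, a desmosomal cadherin, was higher by 1.83 ± 0.07 (adjusted p = 9.60e-16). Of 12 plakins and linkers 8 were lower and 4 higher (median −1.05), of 8 cornified envelope genes 7 were lower and 0 higher (median −8.75), and all 3 testable pseudogenes were lower. Of 21 transcription factors 16 were lower and 4 higher (median −2.25). ELF3, an epithelial ETS factor, was lower by −8.99 ± 0.16 (adjusted p = 1.32e-21), and EHF and GRHL2 had 1 and 0 counts in the HCC1187 controls. Other intermediate filament genes ran the other way, with 11 of 15 higher and 4 lower (median 2.19). VIM averaged 1418 ± 107 CPM in HCC1187 and 99.1 ± 11.9 CPM in MDA-MB-468 (3.85 ± 0.09, adjusted p = 1.94e-19), NEFM stood at 209.7 to 234 CPM in HCC1187 and at most 0.137 CPM in MDA-MB-468, and NEFL, the light neurofilament subunit, at 109.8 to 124 CPM in HCC1187 with no count in the MDA-MB-468 controls. LMNA, the nuclear lamin, was lower by −3.36 ± 0.08 (adjusted p = 1.03e-19). Of the marker lists, 12 of 13 basal markers were lower and 1 higher, 11 of 11 luminal and 6 of 6 epithelial markers were lower, and 7 of 8 mesenchymal markers were higher and 1 lower, while of 2 leukocyte markers 1 was higher and 1 lower. The basal list holds KRT5, KRT6B, KRT14 and KRT17 and the luminal list KRT7, KRT8, KRT18 and KRT19. Their counts thus repeat keratin calls given above.

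The genes whose values followed a keratin most closely were found by the mean absolute difference, over the 12 libraries, between their and its log2 CPM centred on the control mean of each line, among 13797 genes. For KRT17 the 4 closest were HES2 (0.30), KRT75 (0.31), ACTBL2 (0.31) and ANGPTL4 (0.31). HES2, a gene of the HES family of bHLH factors, stood at 57.6, 9.36 and 8.51 CPM in S4 to S6 and at 53.6, 59.9 and 61.8 CPM in S1 to S3, the pattern that KRT17 has there. For KRT8 they were MFGE8 (0.03), MSN (0.04), P4HB (0.05) and CKAP4 (0.05), genes that like KRT8 varied little within a line. This likeness is a description of 12 libraries in 4 groups.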

How the data were processed

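The submitters' processing notes name HISAT2 2.1.0 and featureCounts 2.0.0 beside Trimmomatic 0.39, FastQC 0.11.9, SAMtools and MultiQC 1.11 and the build GRCh38. No source used here gives the strand setting, the treatment of multimapping reads or the annotation release. The deposited tables hold whole-number read counts per gene, not normalized, 1 column per library and lane. The column names give the S number and 1 of 3 lanes, so the lanes of a library could have been added. The plan added lanes only where columns match single samples, and these match groups. Lane 1 was therefore used and 24 count columns were not used. Totals and counts are those of that lane. The deposited sample tables of other columns were read only for which libraries they list. Why sh-SOX9-AS1 columns carry the word BLANCO is not stated.

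Counts were tested as deposited with edgeR 4.0.16 (quasi-likelihood F-test, R 4.3.3) on genes kept by filterByExpr (at least 10 counts, 15 in total) with TMM scaling, each line alone, the controls of both lines, and the interaction over 12 libraries. Standard errors are the fold change over the root of F. CPM levels use TMM-scaled totals of all 12 libraries. Libraries were compared for copies by chi-square per degree of freedom, which was lowest for S1 and S2 at 1.90, so 0 pairs were merged. The code was tested on simulated data. Alternatives were DESeq2 1.42.0, RLE or plain-total scaling, no filter, all 12 libraries together, leaving out each library, the longest transcript as length and adding pseudogene rows. The members and lists were chosen with earlier results of these data known. Named genes are the 10 members, SOX9-AS1 and SOX9, up to 4 genes of each list by smallest p in a comparison, and the 4 closest to KRT17 and KRT8; others are said to be named after their values were seen, or come from the marker lists.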

Additional observations from a re-analysis of the deposited data

Results flagged for a closer look

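By the interaction test of edgeR (HCC1187 minus MDA-MB-468) with all 12 libraries, 4 genes of the lists beside the keratins were called. Their sh-SOX9-AS1 effects differed between the lines. Over all 16328 genes tested 3.75% were called, so these 4 are named as single genes and are no result about the lists. The differences were −1.01 ± 0.21 for CDH3, a cadherin of basal epithelium (adjusted p = 0.0178), −1.03 ± 0.20 for GRHL1 (adjusted p = 0.0147), −1.13 ± 0.23 for VIM (adjusted p = 0.0182) and −0.85 ± 0.19 for XBP1 (adjusted p = 0.0247). Each was lower in HCC1187 with sh-SOX9-AS1, while in MDA-MB-468 none was called with all libraries and each was called higher without S4. CDH3 stood at 13.1, 15.3 and 11.7 CPM with sh-SOX9-AS1 against 17.6 to 20.8 CPM with sh-LacZ in HCC1187, and at 113, 157 and 146 CPM against 91.5 to 114 CPM in MDA-MB-468. XBP1 stood at 83.2 to 91.7 CPM against 107 to 132 CPM in HCC1187, and at 226, 329 and 335 CPM against 216 to 237 CPM in MDA-MB-468. Among the keratins, KRT17 differed in the fit without S4 (2.20 ± 0.31, adjusted p = 6.04e-06) and, with all 12 libraries, where no filter on low counts was used (0.80, adjusted p = 0.00336), but not in the fit as planned.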

How the results depend on the processing

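No paired analysis was possible because the count columns carry no replicate number. Summing the 3 lanes was not run, though the S number in the column names would allow it. The plan added lanes only where columns match single samples, and no column is named for 1. Thus 1 lane of each library was used and levels near 0 rest on that lane. In MDA-MB-468 the genes called were 1 as planned, 1441 with no filter on low counts, 304 with DESeq2, 887 with all 12 libraries fitted together and 0 to 5676 with 1 library left out, the highest without S4. The keratins called there were 0, then 6 with no filter (the 6 basal ones), 1 with all 12 together (KRT16, adjusted p = 0.0401) and 0 to 8 with 1 library left out. The 6 calls with no filter came with nearly unchanged fold changes, and S4 still lay in the control range except for KRT79. The log2 fold change of KRT18, −0.10 with all libraries, ran from −0.27 without S4 to 0.0068 without S6, where it turned. In HCC1187 the genes called were 3418, then 1499 with all 12 together and 2213 to 3410 with 1 library left out, the lowest without S8; the keratins called were 2, then 1 with library totals alone, 1 with all 12 together and 1 to 2 with 1 library left out, KRT8 being the one lost. For the difference between the lines 613 genes were called, 1415 with no filter, 1170 with DESeq2 and 129 to 4300 with 1 library left out; the keratins called were 0, then 1 with no filter (KRT17, 0.80, adjusted p = 0.00336) and 0 to 1 with 1 library left out. Baseline calls kept all 10 keratins in every setting run (12939 to 13463 genes with 1 library left out). For the 7 that passed the filter through MDA-MB-468 alone the direction was fixed. Only KRT8, KRT18 and KRT17 could have turned. The causes of the changes between settings were not tested. With plain library totals the mean level in sh-SOX9-AS1 libraries was 1667 CPM for KRT8 and 2210 CPM for KRT19 in MDA-MB-468, and 176 CPM for KRT8 and 79.0 CPM for KRT18 in HCC1187; in sh-LacZ libraries it was 1386 CPM for KRT5, 567 CPM for KRT17, 1042 CPM for KRT7, 1623 CPM for KRT8 and 892 CPM for KRT18 in MDA-MB-468, and 199 CPM for KRT8 and 101 CPM for KRT18 in HCC1187. Adding pseudogene rows gave 190 CPM for KRT8 in HCC1187 sh-LacZ libraries. The depth of the 1 lane used limits KRT14 and KRT79 in MDA-MB-468, and in HCC1187 the 7 keratins with at most 3 counts a library.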
